A study of Homo sapiens with 3 samples.

Results

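BRG1 peaks were described at 30 genes of the ADAMTS, ADAMTS-like and TIMP families, out of 19974 protein-coding genes on chromosomes 1 to 22 and X. BRG1 is the ATPase subunit of the SWI/SNF chromatin remodelling complex, and it was mapped by chromatin immunoprecipitation and sequencing (ChIP-seq) in wild-type 12Z cells, an immortalised line derived from endometriotic epithelium. The data come from 2 BRG1 ChIP libraries, called replicates 1 and 2, made with an anti-BRG1 antibody, and from 1 input library of the same cells. All cells were fixed in 1% formaldehyde for 10 min, and their chromatin was cut with micrococcal nuclease and then briefly sonicated. No treatment, mutant or second cell line belongs to the design, and whether the replicates came from separate cultures is not stated. Peak lists carry no expression values, so neither the cell type nor the activity of a gene could be checked from them.

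The members are all ADAMTS genes, all ADAMTS-like genes including THSD4 (also known as ADAMTSL6), the papilin gene PAPLN and the 4 TIMP genes. A peak was given to a member when its midpoint lay in the gene body, or within 100 kb of it with no other protein-coding gene nearer. The authors' 3 lists were used, with 17323 peaks in replicate 1, 10082 in replicate 2 and 6293 in the overlap list on these chromosomes. Peaks of the overlap list are called shared peaks. The rule gave 28 shared peaks at members, 68 peaks of replicate 1 and 31 of replicate 2. Each peak's fold is the authors' ratio of signal over background, and its percentile is its rank by fold within its own list, with 100 the highest. Read depth is unknown from peak lists, so a gene without a peak had none detectable at the authors' threshold. With 1 condition, no test between groups was possible.

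ADAMTS enzymes are secreted zinc proteases that carry thrombospondin repeats and cut components of the extracellular matrix. Some cleave large proteoglycans such as versican and aggrecan, others remove the amino-terminal propeptide of fibrillar collagens, and ADAMTS13 trims von Willebrand factor in blood. ADAMTS-like proteins and papilin share the repeats but lack the protease domain, and several of them bind fibrillin microfibrils. TIMPs are small secreted inhibitors of matrix metalloproteinases, and TIMP3 also inhibits ADAMTS proteoglycanases and sits in the matrix.

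Of the 30 members, 12 had at least 1 shared peak (40.0%), against 9.67% of all protein-coding genes. They were ADAMTS3, ADAMTS6, ADAMTS14, ADAMTS15, ADAMTS16, ADAMTS17, ADAMTS20, ADAMTSL1, ADAMTSL3, THSD4, PAPLN and TIMP2. THSD4, which in mice promotes assembly of fibrillin-1 microfibrils, held 11 of the 28 shared peaks (39.3%). ADAMTS16 had 4, TIMP2 had 3 and ADAMTS17 had 2, and the other 8 members with a shared peak had 1 each. These 4 members with 2 or more shared peaks are 13.3% of the family, and the same was true of 3.27% of all genes. Replicate 1 had a peak at 18 members (60.0%), against 20.2% of all genes, and replicate 2 at 13 (43.3%), against 11.5%. A further 12 members had no peak in any of the lists, a state shared by 78.8% of all genes.

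**Figure D1:**
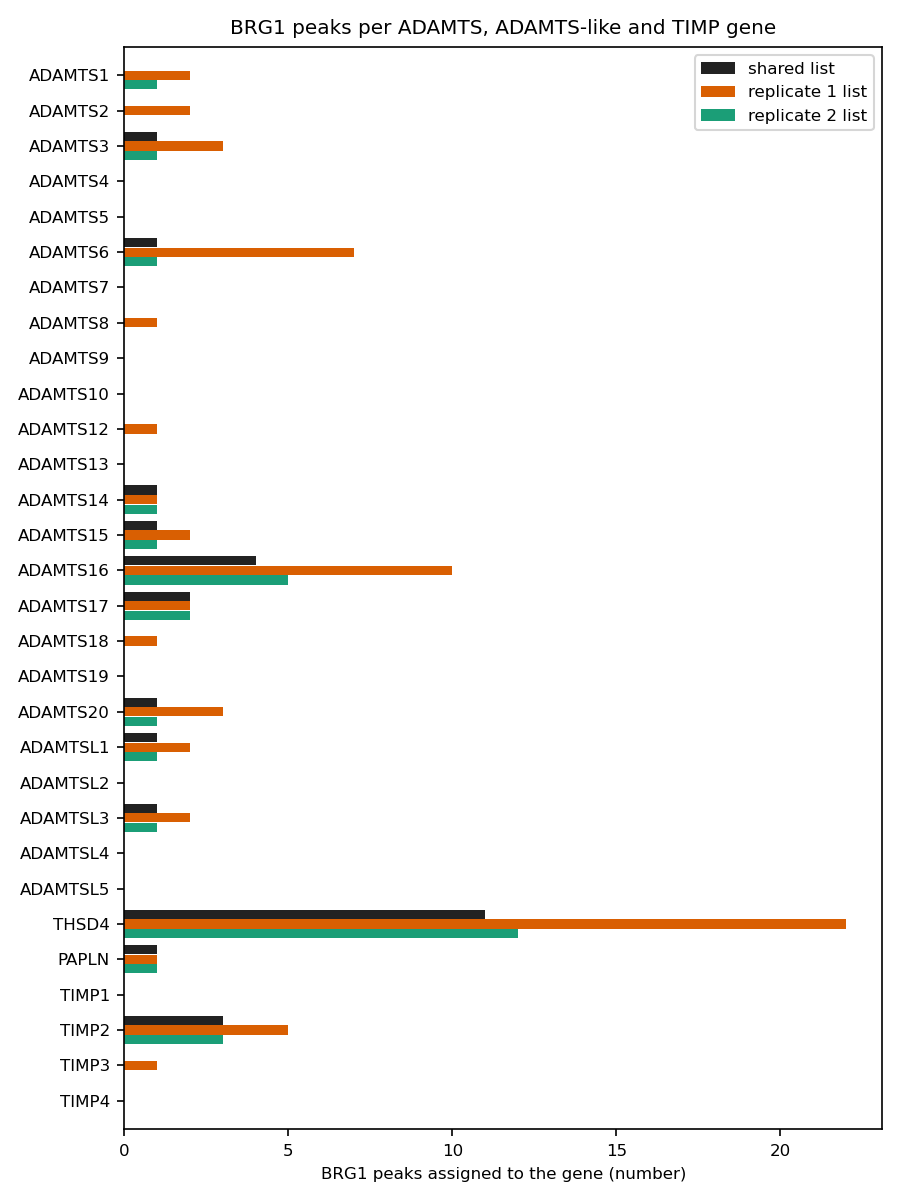
Number of BRG1 peaks assigned to each of the 30 genes (rows) in the shared list, the replicate 1 list and the replicate 2 list (bars, horizontal axis in peaks). THSD4 has 11, 22 and 12 peaks in these lists and ADAMTS16 has 4, 10 and 5, while 12 genes have none.

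Members have long gene domains, meaning the gene body plus the flanks that the rule gives to it. The median domain was 135 kb for members and 56.5 kb for all genes. Longer domains held shared peaks more often in the whole genome, from 1.05% of genes with domains under 20 kb through 3.61% (20 to 50 kb), 8.95% (50 to 100 kb), 14.8% (100 to 200 kb) and 26.0% (200 to 500 kb) to 33.1% over 500 kb. Among the 18 members with a domain of 100 kb or more, 11 had a shared peak (61.1%), against 19.9% of all genes of that length. Among the 12 shorter members only PAPLN had one, against 4.43% of all genes under 100 kb. Averaged over the members' own length classes, the share of all genes with a shared peak was 15.9%. Per Mb of domain, members carried 3.86 shared peaks and all genes 1.55. Without THSD4 the members' density was 2.60 per Mb. At a −log10 q of 2 or more the members with a shared peak were still 12, against 9.6% of all genes, and at 3 or more they were 8, against 7.52%. No set test was run.

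**Figure D2:**
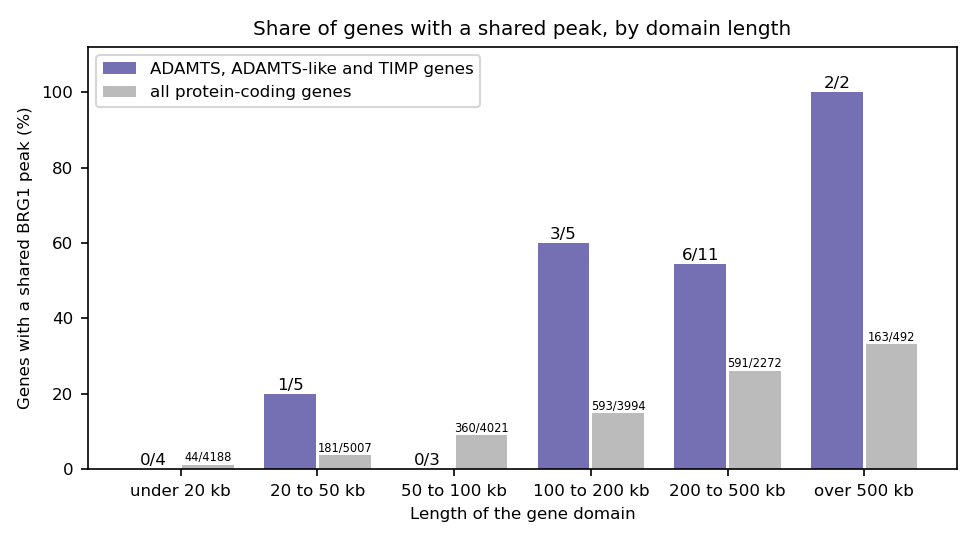
Percent of genes with a shared BRG1 peak (vertical axis) by length class of the gene domain (horizontal axis), for the 30 family members and for all 19974 protein-coding genes; counts stand above the bars. The members with a shared peak are 11 of the 18 with domains of 100 kb or more and 1 of the 12 shorter ones.

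The median fold of the members' shared peaks was 3.42, against 3.47 for all 3244 shared peaks with a gene within 100 kb, and the median width was 940 bp for members against 992 bp. Member folds ran from 2.78 to 4.25. The median −log10 q was 3.24 for members and 3.44 for those 3244 peaks, and 2 of the 28 member peaks reached 5 (7.14%), against 484 of the 3244 (14.9%). Those 2 lay at THSD4 and ADAMTS20. In replicate 1, 0 of 68 member peaks reached 5, with 4.82 the highest, against 1.71% of all its peaks with a gene, a share at which few or none of 68 would be met. Of the 28, 19 lay inside the gene body (67.9%), against 56.9% of all shared peaks with a gene, while bodies made up 72.2% of the members' domains and 61.2% of all domains.

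The proteoglycanase group had 2 of 7 members with a shared peak, ADAMTS15 and ADAMTS20 (28.6%), against 14.4% of all genes in the same domain length classes. ADAMTS20, which cleaves versican in mouse development, had the shared peak of second highest fold in the family, at 43332797 to 43333460 on chromosome 12, 19.6 kb below the lower-coordinate end of the gene. Its fold was 4.10 with a −log10 q of 5.07. Inside it, replicate 1 had a peak of fold 4.91 at the 98.9th percentile of its list, and replicate 2 a peak of fold 4.29 at the 89.1st percentile. By either replicate, the peak thus ranked high in its list. Its midpoint lay 219.1 kb beyond the tabulated transcription start, since ADAMTS20 is read from its higher-coordinate end. Replicate 1 alone had peaks 46.6 and 67.3 kb below the gene.

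ADAMTS15 and ADAMTS8 are proteoglycanase genes that lie next to each other on chromosome 11. The shared peak at 130478009 to 130479020 lay 1.9 kb above the upper end of ADAMTS15 and 49.9 kb from ADAMTS8, so the rule gave it to ADAMTS15 alone. Its fold was 3.48 in the overlap list, and the replicate peaks under it stood at the 66.5th and 78.0th percentiles. ADAMTS8 itself had a replicate 1 peak 1.3 kb below its lower end (fold 3.56) and no peak in replicate 2.

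ADAMTS1 and ADAMTS5 form a similar neighbouring pair on chromosome 21, and neither had a shared peak. ADAMTS1, an early-response protease that cleaves versican and is known for its role in ovulation, had a replicate 1 peak at 26842707 to 26843083 (fold 3.41) and a replicate 2 peak at 26845220 to 26845529 (fold 3.17) in its body of 9.65 kb. These do not overlap, and both stood low in their lists, at the 35.6th and 16.2nd percentiles. The ADAMTS1 peak of highest fold, 4.08 at the 87.8th percentile, was seen in replicate 1 alone, 58.8 kb below the gene. For ADAMTS5, the main aggrecanase of cartilage in mice, a shared peak lay 92.8 kb away at 27059186 to 27060606 (fold 3.51). A predicted gene with a placeholder name, LOC124905050, begins inside ADAMTS5 and extends past it, and so took that peak. Leaving out genes with such names, a setting chosen after seeing the data, gave the peak to ADAMTS5 and raised the members with a shared peak to 13, against 9.83% of all genes under that setting. ADAMTS4 and ADAMTS9, also proteoglycanases, had no peak in any list.

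Of the 3 procollagen N-proteinases, ADAMTS3 and ADAMTS14 had a shared peak and ADAMTS2 did not, against 22.3% of all genes in the same length classes. ADAMTS3, which also matures the lymphatic growth factor VEGF-C, had its shared peak inside the gene at 72374955 to 72376117 on chromosome 4, with a fold of 3.57. The replicate 2 peak within it, 103 bp wide, had a fold of 5.04 at the 98.7th percentile, and the replicate 1 peak had a fold of 3.99 at the 84.0th. The shared peak lay 193.7 kb inside the gene from the tabulated start. ADAMTS14 had its shared peak at 70664781 to 70665215 on chromosome 10, centred 7.5 kb before the start. That peak had a fold of 3.33, at the 49.9th percentile of the overlap list, while its replicate peaks stood lower, at the 23.7th and 38.6th percentiles. A further shared peak 94.1 kb from ADAMTS14 (fold 3.04) was nearer to PALD1. ADAMTS2, the enzyme lost in dermatosparaxis, had 2 peaks in its body in replicate 1 (folds 3.66 and 3.88) and none in replicate 2.

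ADAMTS6 and ADAMTS10 are the members best known for acting around fibrillin microfibrils, and 1 of these 2 had a shared peak, against 14.8% of all genes in their length classes. ADAMTS6 had 7 peaks in replicate 1, but only 1 was also found in replicate 2. That one is the widest shared peak of the family, 3252 bp at 65197467 to 65200718 on chromosome 5, with a fold of 3.34. Replicate 1 peaks also flanked the ADAMTS6 start, centred 0.9 kb inside the gene (fold 3.66) and 1.0 kb before it (fold 3.55). Neither was found in replicate 2. ADAMTS10 had no peak in any list, and its nearest shared peak was 464888 bp from a start.

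Because of these flanking peaks, the 250 bases that precede the ADAMTS6 start are shown (RefSeq, GRCh38.p14, chr5:65481921-65482170, minus strand), with capitals for a match to the TEAD motif GGAATG.
ADAMTS6: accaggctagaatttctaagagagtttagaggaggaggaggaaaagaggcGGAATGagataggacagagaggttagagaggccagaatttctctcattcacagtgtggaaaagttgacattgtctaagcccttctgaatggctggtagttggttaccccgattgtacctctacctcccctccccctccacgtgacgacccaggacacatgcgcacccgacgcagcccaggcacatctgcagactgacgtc

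Among the remaining proteases, ADAMTS16 and ADAMTS17 had several shared peaks and the others none. With ADAMTS18 and ADAMTS19 they form a group of 4 relatives whose length class had a shared peak at 26.0% of all genes. ADAMTS16, studied in kidney and gonad development, had 4 shared peaks on chromosome 5, a number that 141 of the 19974 genes reached, ADAMTS16 included. The one below the gene lay at 5126482 to 5126846 with a fold of 3.59. Inside the body, those at 5165661 to 5166295 and 5271361 to 5272601 had folds of 3.58 and 3.41. The one above its upper end, at 5335302 to 5336281, had a fold of 3.43. Like all 28 shared peaks at members, each of the 4 overlapped a peak in both replicates. An overlap list may require this, so it is no particular trait of these 4. Each had a −log10 q over 3 in the overlap list, a level that 17 of the 28 member peaks reached. Replicate 1 had a further run of 4 peaks 20.3 to 31.3 kb above the gene, the highest at 5340290 to 5340884 with a fold of 4.29 (93.0th percentile). None of those was found in replicate 2, although replicate 2 had a peak of its own at 5350243 to 5350434 (fold 3.50).

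ADAMTS17, whose loss causes a Weill-Marchesani-like syndrome with short stature and lens defects, had 2 shared peaks inside its body on chromosome 15. The one at 100042767 to 100043678 had a fold of 3.68, and its replicate peaks stood at the 81.3rd and 83.2nd percentiles. The other, at 100093595 to 100094144, had a fold of 3.20. Replicates 1 and 2 each had 2 peaks at the gene, which overlapped each other in pairs. Under the shared peak of fold 3.68 the replicate 2 peak lay inside the replicate 1 peak. Under that of fold 3.20 the overlap was only partial. Of the 4 members with 2 or more shared peaks, only ADAMTS17 had the same number of peaks in all 3 lists. ADAMTS18, the close relative of ADAMTS16, had 1 weak peak in replicate 1 (fold 3.36, −log10 q 1.39). ADAMTS19, the close relative of ADAMTS17, had none in its domain of 383 kb.

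The pair that cleaves cartilage oligomeric matrix protein, ADAMTS7 and ADAMTS12, had no shared peak, against 20.4% of all genes in their length classes with one. ADAMTS12 had 1 peak in replicate 1 inside its body (fold 3.44) and ADAMTS7 had none. ADAMTS13, with a domain of 45.3 kb on chromosome 9, had no peak in any list, and 3.61% of all genes of its length class had a shared one. The gene of its substrate, VWF, had 2 shared peaks.

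THSD4 stood out by the number of its peaks. It had 11 shared peaks in a domain of 722 kb on chromosome 15, and 22 peaks in replicate 1 and 12 in replicate 2. Its density was 1.52 shared peaks per 100 kb. Per Mb, a longer unit, all genes had only 1.55, and all genes with a domain of 100 kb or more had 1.57. By density THSD4 was not the highest member. TIMP2 had 2.97 per 100 kb, and PAPLN, with 1 peak in a short domain, had 2.21. Only 6 genes had more shared peaks. These were TPTE with 30, LOC124903442 with 28, CWH43 with 21, SMAD3 with 13, and KCNMA1 and CAST with 12 each. THSD4 peaks lay from 16.9 kb before the first tabulated start to 656.6 kb after it, 10 of them inside the body. The folds ran from 3.13 to 4.25 with a median of 3.32, so most THSD4 peaks were not strong ones.

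The shared THSD4 peak of highest fold, at 71683609 to 71684909, lay 587.4 kb after the first start, with a fold of 4.25 and a −log10 q of 5.57. Its replicate peaks had folds of 4.60 and 4.42, at the 97.1st and 92.3rd percentiles. Next came the peak at 71294499 to 71296473, 198.6 kb after the start, with a fold of 3.99 and replicate percentiles of 95.7 and 93.0. By the mean of both replicate percentiles, these THSD4 peaks ranked 1 and 2 among the 28 member peaks, ahead of the ADAMTS20 and ADAMTS3 peaks at 3 and 4. The peak at 71707032 to 71708173, 610.7 kb after the start, had a fold of 3.56. Its replicate peaks stood at the 76.9th percentile in replicate 1 and the 98.3rd in replicate 2, where the peak was 115 bp wide.

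The weaker THSD4 peaks came partly in neighbouring sets. Those at 71559450 to 71560231 and 71561753 to 71562831 were 1521 bp apart, and both followed the third tabulated start. Those at 71747284 to 71748990 and 71753047 to 71753932 were 4056 bp apart near the end of the gene. The shared peak before the gene, at 71079281 to 71080716 (fold 3.32), was the only one of the 28 whose replicate peaks did not overlap each other. Of the 22 replicate 1 peaks at THSD4, 10 were found in replicate 2, with folds of 3.32 to 4.60. The 12 not found had folds of 3.34 to 3.90. Lying 44.5 and 47.3 kb before THSD4, a further 2 shared peaks (folds 3.29 and 3.51) were assigned to LRRC49, the gene beside it.

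**Figure D3:**
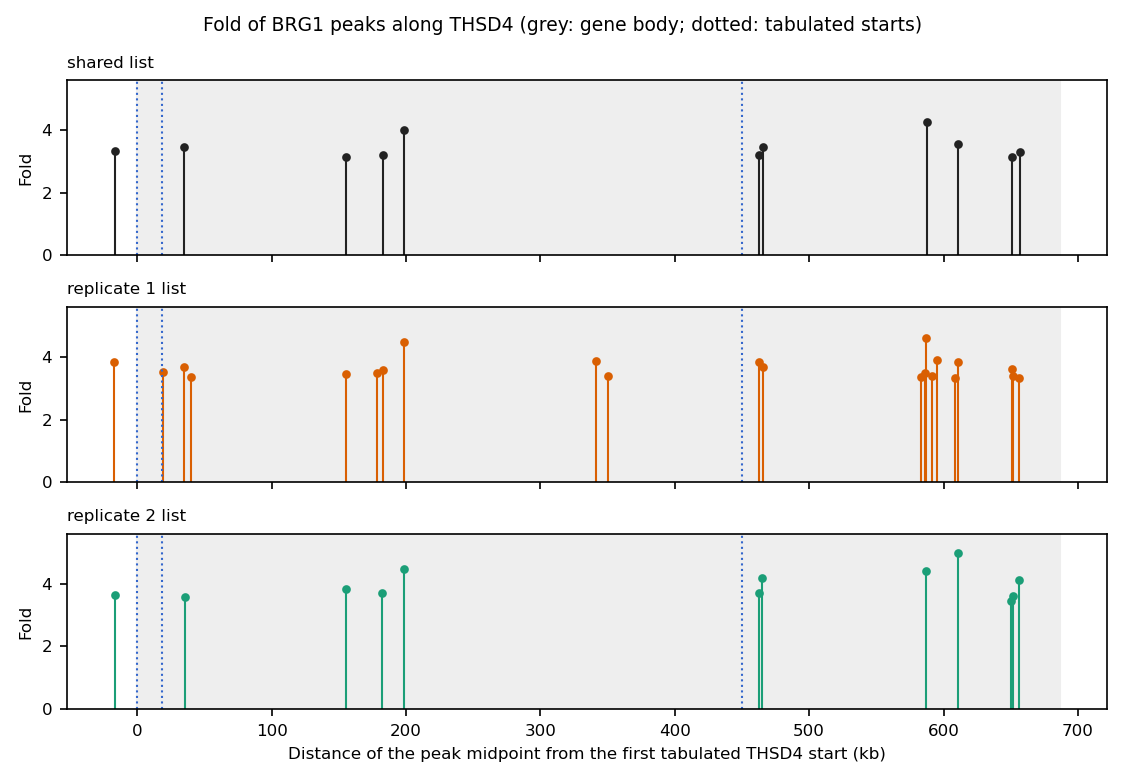
Fold over background (vertical axis) of each BRG1 peak at THSD4 in the shared, replicate 1 and replicate 2 lists (1 panel each), against the distance of the peak midpoint from the first tabulated start (horizontal axis, kb); grey marks the gene body and dotted lines the 3 tabulated starts. Shared peaks run from 16.9 kb before that start to 656.6 kb after it, and the highest, of fold 4.25, is at 587.4 kb.

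THSD4 has 3 tabulated starts. The 250 bases before each are shown because THSD4 holds the most peaks of the family, although no peak overlapped a window. The nearest shared peak edges lay 16178, 15984 and 12214 bp from the starts. They come from RefSeq, build GRCh38.p14, at chr15:71096644-71096893, plus strand, then chr15:71115221-71115470 and chr15:71546986-71547235 on the same strand. Capitals mark matches to TEAD (GGAATG), RUNX (TGTGGT), NFY (CCAAT) or SP1 (GGGCGG) motifs on either strand.
THSD4 start 1: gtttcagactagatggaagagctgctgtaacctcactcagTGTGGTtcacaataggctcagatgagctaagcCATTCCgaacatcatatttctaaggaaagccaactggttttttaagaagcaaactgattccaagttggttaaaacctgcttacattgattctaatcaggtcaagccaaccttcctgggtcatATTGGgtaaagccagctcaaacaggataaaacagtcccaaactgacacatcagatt
THSD4 start 2: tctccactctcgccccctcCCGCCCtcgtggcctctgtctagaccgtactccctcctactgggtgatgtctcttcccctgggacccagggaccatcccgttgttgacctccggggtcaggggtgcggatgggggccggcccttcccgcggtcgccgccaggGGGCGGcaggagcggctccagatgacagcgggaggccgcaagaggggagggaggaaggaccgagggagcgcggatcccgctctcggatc
THSD4 start 3: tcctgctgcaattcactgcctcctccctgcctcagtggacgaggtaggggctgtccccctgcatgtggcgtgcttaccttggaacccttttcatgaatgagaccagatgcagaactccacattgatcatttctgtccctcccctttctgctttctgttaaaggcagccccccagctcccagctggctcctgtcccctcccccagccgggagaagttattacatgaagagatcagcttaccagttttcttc
The windows differ in composition, with 41.6%, 70.4% and 54.4% G and C, and the third held no match. Replicate 1 had a peak with its nearer edge 429 bp from the second start (fold 3.52), which replicate 2 lacked.

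ADAMTS-like genes and PAPLN had a shared peak at 4 of 7 members with THSD4 included (57.1%), against 14.9% of all genes in their length classes. Of the other ADAMTS-like genes, ADAMTSL1 and ADAMTSL3 had 1 shared peak each and ADAMTSL2, ADAMTSL4 and ADAMTSL5 had no peak in any list. ADAMTSL1, whose body spans 1000 kb, had 1 shared peak, at 18490305 to 18491478 on chromosome 9 (fold 3.35). Its nearer edge lay 16152 bp past the tabulated start, which is itself well inside the gene body. ADAMTSL3, a gene associated with adult height in population studies, had its shared peak 41.8 kb above its upper end, at 84081029 to 84082173 on chromosome 15 (fold 3.17). Its strongest peak was seen in replicate 1 alone, inside the gene at 83733241 to 83733593. With a fold of 5.03 at the 99.2nd percentile and a −log10 q of 4.82, it was the highest member peak of replicate 1, and replicate 2 had none there.

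PAPLN, which encodes papilin, had the shared peak closest to a start among the members with tabulated starts. The shared peak at 73238326 to 73239061 on chromosome 14 (fold 3.46) lay between 2 tabulated starts, 820 bp after one and 712 bp before the other. The replicate 1 peak in it had a fold of 4.56 at the 96.9th percentile, while the replicate 2 peak had a fold of 3.53 at the 35.5th percentile. The replicates thus ranked it very differently. The 250 bases before each start are shown as the sequences that flank this peak (RefSeq, GRCh38.p14, chr14:73237256-73237505, plus strand, and chr14:73239523-73239772, same strand), with capitals as for THSD4.
PAPLN start 1: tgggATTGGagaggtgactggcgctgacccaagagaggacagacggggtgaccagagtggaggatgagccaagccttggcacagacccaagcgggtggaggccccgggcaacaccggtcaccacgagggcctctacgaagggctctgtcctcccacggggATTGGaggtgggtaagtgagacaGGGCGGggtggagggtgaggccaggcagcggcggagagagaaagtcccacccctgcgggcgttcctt
PAPLN start 2: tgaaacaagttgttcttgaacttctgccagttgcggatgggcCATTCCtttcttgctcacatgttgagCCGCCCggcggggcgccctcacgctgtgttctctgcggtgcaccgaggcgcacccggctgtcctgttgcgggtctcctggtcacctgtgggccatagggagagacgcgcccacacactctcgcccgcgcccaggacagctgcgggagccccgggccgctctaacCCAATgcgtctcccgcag

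TIMP2 was the only one of the 4 TIMP genes with a shared peak, against 6.48% of all genes in their length classes. TIMP2 inhibits metalloproteinases and also helps MMP14 to activate pro-MMP2. Its 3 shared peaks lay on chromosome 17, in a domain of 101 kb, and 280 genes had as many or more, TIMP2 included. The peak inside the body, at 78862130 to 78862458, had a fold of 3.42. The peaks at 78933604 to 78934278 and 78935856 to 78936378 lay above the upper end of the gene, 1577 bp apart, with folds of 2.78 and 3.64. The one of fold 2.78 was the weakest member peak in the overlap list, with a −log10 q of 1.69, and the one of fold 3.64 reached 4.89. Replicate 1 also had a peak 0.3 kb beyond the upper end of TIMP2 (fold 3.37), which replicate 2 lacked.

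TIMP1, TIMP3 and TIMP4 lie inside the synapsin genes SYN1, SYN3 and SYN2, so the rule left them their own bodies as domains. Those domains were 4.35 kb for TIMP1, 61.3 kb for TIMP3 and 5.84 kb for TIMP4. TIMP3 had 1 peak in replicate 1 at 32803392 to 32803515 on chromosome 22 (fold 3.83, 75.3rd percentile), centred 1.7 kb after its start, and none in replicate 2. TIMP1 and TIMP4 had no peak in any list. A shared peak 69.3 kb from TIMP4 (fold 3.21) was assigned to SYN2. The 250 bases before the TIMP3 start are shown for the replicate 1 peak that follows it (RefSeq, GRCh38.p14, chr22:32801455-32801704, plus strand), with capitals as above.
TIMP3: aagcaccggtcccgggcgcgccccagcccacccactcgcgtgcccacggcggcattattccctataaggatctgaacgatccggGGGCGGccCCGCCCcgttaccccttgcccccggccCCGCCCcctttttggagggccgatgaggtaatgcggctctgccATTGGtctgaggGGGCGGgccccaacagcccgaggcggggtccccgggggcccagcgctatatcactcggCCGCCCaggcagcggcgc

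**Figure D4:**
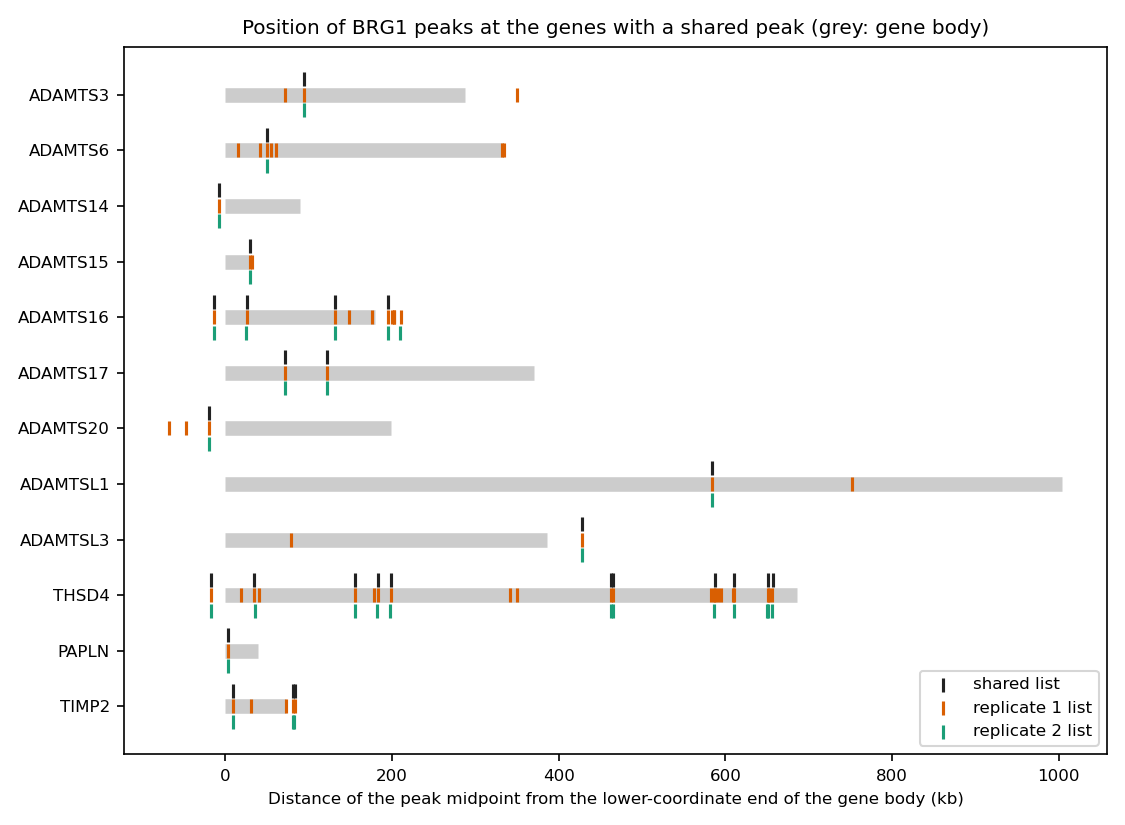
Positions of BRG1 peaks (ticks, 1 row of ticks per list) at the 12 genes with a shared peak, as the distance of the peak midpoint from the lower-coordinate end of the gene body (horizontal axis, kb). Grey bars are gene bodies. The 28 shared peaks include 19 inside bodies, and ADAMTS14, ADAMTS15, ADAMTS20 and ADAMTSL3 have theirs outside only.

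RefSeq windows of 300 bases, from 250 before to 50 after a start, were tabulated for 22 members with 26 starts. ADAMTS1, ADAMTS4, ADAMTS5, ADAMTS8, ADAMTS9, ADAMTS15, ADAMTS16 and TIMP2 have no entry. A shared peak overlapped 0 of the 26 windows, against 0.642% of 22132 windows of all genes. Replicate 1 and replicate 2 peaks also overlapped 0 of the 26, against 1.34% and 0.601% of all windows. At such shares few or none of 26 windows would be met, so these counts tell nothing about the members. Within 20 kb of a start, shared peaks were met at 7 of 26 member starts, against 5.36% of all starts. Those 7 belonged to only 4 genes, ADAMTS14, ADAMTSL1, PAPLN and THSD4. All 3 starts of THSD4 and both of PAPLN were among them, and the 1 PAPLN peak was counted at both of its starts. Starts of 1 gene are thus not independent units in this share. The SP1 letters GGGCGG occurred on either strand in 21 of the 26 member windows (80.8%), against 56.3% of all windows. TEAD letters occurred in 6 (23.1% against 12.2%) and NFY letters in 10 (38.5% against 34.6%). RUNX letters occurred in 3 (11.5% against 11.3%), AP-1 letters TGANTCA in 1 (3.85% against 6.15%) and ETS letters CCGGAAGT in 0 (0.0% against 5.35%). These are counts of letters and not of bound sites.

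Of the 31 replicate 2 peaks at members, 27 overlapped a replicate 1 peak (87.1%, 95% exact Clopper-Pearson interval 70.2 to 96.4%). For all replicate 2 peaks with a gene within 100 kb the share was 74.1% (interval 72.8 to 75.4%). Of the 68 replicate 1 peaks at members, 27 overlapped a replicate 2 peak (39.7%, interval 28.0 to 52.3%), against 33.0% of all such peaks (interval 32.1 to 34.0%). Both member intervals are wide and contain the share of all peaks with a gene within 100 kb. Over all peaks of a list, with or without a gene, the share was 63.9% for replicate 2, below the member interval, and 36.6% for replicate 1, inside it. The intervals treat peaks as independent and cover counting error only. At members the replicate 1 peaks found again had a median fold of 3.74 and those not found 3.52. All replicate 1 peaks with a gene within 100 kb had a similar gap (3.81 and 3.56). ADAMTS6, ADAMTS16 and THSD4 supplied most of the peaks not found, and 6 members, against 10.5% of all genes, had peaks in replicate 1 and no shared peak, namely ADAMTS1, ADAMTS2, ADAMTS8, ADAMTS12, ADAMTS18 and TIMP3.

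**Figure D5:**
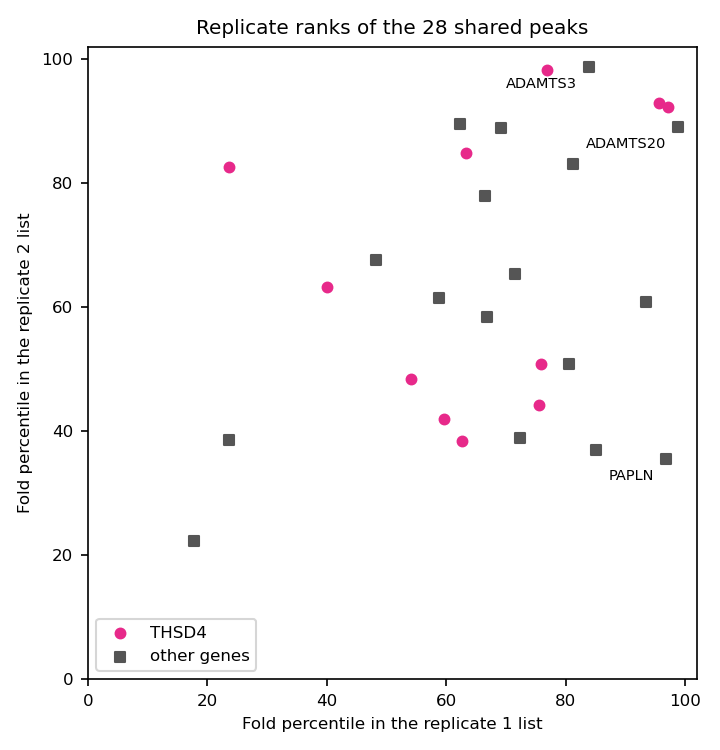
Fold percentile of the strongest replicate peak under each of the 28 shared peaks, in the replicate 1 list (horizontal axis) and the replicate 2 list (vertical axis), with THSD4 peaks as circles and other genes as squares. The THSD4, ADAMTS20 and ADAMTS3 peaks named as ranks 1 to 4 lie at the upper right, while PAPLN is at 96.9 in replicate 1 and 35.5 in replicate 2.

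Chromosomes 15 and 5 held most of the shared peaks at members, mainly at THSD4 and ADAMTS16. On chromosome 15, THSD4 (11), ADAMTS17 (2) and ADAMTSL3 (1) held 14 of the 28 shared peaks. On chromosome 5, ADAMTS16 (4) and ADAMTS6 (1) held 5. The share of all shared peaks on these chromosomes is not given here. Of all genes on these chromosomes, 13.6% on chromosome 15 and 16.7% on chromosome 5 had a shared peak, against 9.67% of all genes. Of the members, 3 of 4 on chromosome 15 and 2 of 5 on chromosome 5 had one. The part of the chromosome in these counts was not tested. At the limit of the rule, the farthest peaks admitted were replicate 1 peaks 62.2 kb from ADAMTS3 and 67.3 kb from ADAMTS20, and the nearest left out was a replicate 1 peak 125.4 kb from ADAMTS16 (fold 3.43).

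Genes whose products are cut by, bound to or related to the family were set beside it. Matrix metalloproteinases, which TIMPs inhibit, had a shared peak at 1 of 23 genes, MMP20 (fold 3.79), an enamel protease. Membrane-bound ADAM proteases had one at 5 of 13, namely ADAM9, ADAM10, ADAM12, ADAM19 and ADAM28. ADAM10 is a sheddase of Notch and cadherins, and its peak had a fold of 3.09. Of the ADAMTS substrates, 7 of 16 had a shared peak. By the highest fold at each gene, they were COL1A2 (4.05), VWF (4.03), COL5A1 (3.97), COL5A2 (3.79), ACAN (aggrecan, 3.76), COL1A1 (3.59) and DCN (3.17). COL5A2, which encodes a chain of collagen V, had 5. Of the genes listed as fibrillin microfibril partners, 6 of 13 had a shared peak. By the same measure, they were LOXL1 (4.23), LTBP2 (4.02), FBN1 itself (3.96), EFEMP1 (3.87), FN1 (3.83) and LTBP1 (3.16). Among 8 genes for maturation, clearance and control of ADAMTS enzymes, SDC4 alone had one (fold 3.68), and the convertase gene FURIN and the uptake receptor gene LRP1 had none. All of these stand against the 9.67% of all genes, and the share of all genes with a shared peak in the same length classes as the lists was 7.83% (metalloproteinases), 10.5% (ADAMs), 14.0% (substrates), 14.1% (fibrillin partners) and 16.4% (maturation).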

How the data were processed

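BRG1 ChIP-seq covered 2 BRG1 libraries and 1 input library of 12Z cells, and no list of the input was analysed. MACS2, Bowtie2, Picard, bedtools, SAMtools, Trim Galore and cutadapt are named without versions in the submitters' processing notes, with build GRCh38.p12. Thresholds and the way the overlap list was made are not stated. For every peak, the deposited lists hold the authors' fold (a ratio of signal over background), a −log10 q-value and a score. The deposited score follows the −log10 q and was not used.

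Peaks on chromosomes 1 to 22 and X were assigned to protein-coding genes of RefSeq GRCh38.p14, whose coordinates are used for distances only, since patch releases leave the chromosomes unchanged. A midpoint inside several bodies counted for each of those genes. Promoter windows are RefSeq's. Replicate peaks counted as found at an overlap of 1 bp. Lists and members were chosen with earlier results of these data known. All 30 members are named, with their shared peaks, the highest replicate peaks where no peak was shared, or the lack of any peak. Other genes named had a shared peak, took a peak near a member, hold a member's body, or are given for their rank or lack of a peak, chosen after their values were seen. No set test was run. The assignment and length functions were tested on simulated data. Analyses used Python 3.11.15, numpy 2.4.6, pandas 2.3.3, scipy 1.17.1 and matplotlib 3.10.9. Planned searches for motifs in peaks were not run, because no genome of the files' build was used here.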

Additional observations from a re-analysis of the deposited data

How the results depend on the processing

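The 12 members with a shared peak stayed 12 within 50 kb, with whole peaks and at a −log10 q of 2 or more. They became 8 with gene bodies only (ADAMTS14, ADAMTS15, ADAMTS20 and ADAMTSL3 lost), against 5.95% of all genes, and 8 at a −log10 q of 3 or more (ADAMTS6, ADAMTS14, ADAMTSL1 and ADAMTSL3 lost), against 7.52%. Counting every gene within 100 kb gave 15, with ADAMTS5, ADAMTS8 and TIMP4 added, against 23.0% of all genes. Without replicate 1 or without replicate 2 they were 13 to 18. The 28 member peaks became 17 at a −log10 q of 3 or more, and 31 to 68 with either replicate list alone. The 1932 genes with a shared peak became 1189 with bodies only, 4603 with every gene within 100 kb, and 2290 to 4033 with either list alone. At a −log10 q of 3 or more, members with a peak were 7 in replicate 1, against 5.69% of all genes, and 3 in replicate 2, against 2.91% (18 and 13 members, against 20.2% and 11.5%, at the authors' threshold). Replicate 1 member peaks found in replicate 2 were 10.3% when 50% of both peaks had to overlap, against 39.7% at 1 bp. Where both lists were held to a −log10 q of at least 2, the share was 31.4%. For replicate 2 member peaks the shares were 22.6% and 64.7% at these settings, against 87.1%. The matching shares of all peaks are not given here, so these values do not set members apart from other genes. Stricter thresholds and gene bodies only leave fewer peaks by construction, and a 50% overlap can only lower the share found. Counting every gene within 100 kb can only add genes. Counts with either replicate list alone are that list's own counts, so a peak did not have to be in the overlap list. The cause of the other changes was not tested. Unknown depth limits every count of genes without a peak.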

Other observations

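Replicate 1 had 2.98 peaks with a gene within 100 kb for each such shared peak, and the following counts at related genes stand beside that. COL5A2 had 16 peaks in replicate 1, 5 in replicate 2 and 5 shared peaks. ADAM12, a membrane protease gene with a domain of 396 kb, had 12 in replicate 1, 3 in replicate 2 and 2 shared peaks. EFEMP1, which encodes the matrix protein fibulin-3, had 6 in replicate 1, 3 in replicate 2 and 3 shared peaks.

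The shared peak given to LTBP1, at 32916216 to 32916625 on chromosome 2, had the highest −log10 q of all 3244 shared peaks with a gene within 100 kb, 34.89, with a fold of only 3.16 (33.5th percentile). Its fold was thus below the median of its list. The peak of replicate 1 in ADAMTSL3, at the 99.2nd percentile of its list, had no counterpart in replicate 2. No explanation was tested for either.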
